A study of Mus musculus with 91 samples.

Results

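The let-7 and miR-98 family is a group of microRNAs (miRNAs, small RNAs that guide Argonaute proteins to complementary sites in mRNAs) that share a seed, the bases near the 5′ end that pair with the target. It comprised 9 mature 5p miRNAs here, mmu-let-7a-5p, mmu-let-7b-5p, mmu-let-7c-5p, mmu-let-7d-5p, mmu-let-7e-5p, mmu-let-7f-5p, mmu-let-7g-5p, mmu-let-7i-5p and mmu-miR-98-5p. They were chosen by name and sequence family, not by any measured value, and were 9 of the 1504 mature miRNAs in the main count table. Levels were measured by Cas9-assisted small RNA sequencing (CAS-seq), a method for very small amounts of RNA in which Cas9 cuts adapter dimers, and are given as CPM, the count of a miRNA scaled by the total miRNA count of its library. CPM values of different miRNAs are not calibrated against each other, because ligation and amplification favour some sequences.

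There were 91 libraries, of which 62 came from dissected mouse embryos. By the labels these came from a C57BL/6 father and an F1 mother, and by the study's methods from *Oct4-EGFP* males on a C57BL/6J background and B6D2F1 females (C57BL/6J with DBA2), so that they shared the *Oct4-EGFP* transgene. Extraembryonic ectoderm (Exe) and epiblast (Epi) were taken at E6.5 and E7.5 from 4 genotypes, *Dnmt*-null, *Dnmt3a/3b*-DKO, *Dnmt1*-KO and control, with 4 libraries a group except E7.5 Epi control and E7.5 Epi *Dnmt*-null, which had 3 each. The mutants had been made in zygotes with a cytosine base editor that places stop codons in the DNA methyltransferase genes, so each embryo was edited separately and the labels do not give the editing of a sample. A further 18 libraries came from semi-cloned (SC) embryos, in which an androgenetic haploid embryonic stem cell (AG-haESC, a haploid cell that carries a sperm genome) is injected into an oocyte in place of the sperm. The E6.5 SC groups were WT, DKO, DKO;*Dnmt*-null and *Dnmt*-null, and the E7.5 SC groups were control and Mir-6KO;*Dnmt*-null, with 3 libraries each. The legends of the study's main figures name E6.5 epiblast for the WT, DKO and *Dnmt*-null SC groups. They name no tissue for the E7.5 SC groups. DKO in an SC embryo stands for deletion of the *H19* and *IG* differentially methylated regions, and Mir-6KO for deletion of let-7b together with the genes of miR-409, miR-540, miR-127, miR-369 and miR-541. These deletions came from the AG-haESC genome and the oocyte genome did not carry them. By the study's text, the Mir-6KO line was made in cells that already lacked the *H19* and *IG* regions, and control SC embryos came from such DKO cells too, so both E7.5 SC groups carry these deletions. The AG-haESCs, grown with 2i and Lif, were WT (3 libraries), O48 (3) and Mir-6KO (2). The label O48 gives no genotype. In the methods O48 is the line into which the miRNA deletion plasmids were put, which together with the text makes it a DKO line without the *H19* and *IG* regions. Deletion lines were expanded from single cells, and 3 libraries of a line named 408 had no stated group. The labels do not say which libraries of a group came from separate embryos or cultures, so p-values measure the spread between libraries.

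let-7 miRNAs are known as regulators of developmental timing, with low levels in pluripotent cells and rising levels as cells differentiate. The RNA-binding protein LIN28, which is abundant in pluripotent cells, blocks the processing of most let-7 precursors, and let-7 in turn represses *Lin28*. Known targets include *Hmga2*, *Myc* and *Ras* genes.

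The mature sequences, from RefSeq (all 9 members matched), show how close the members are, which bears on how far their counts can be separated. Capitals mark the seed, bases 2 to 8, which is the same in the 9 members.
let-7a-5p: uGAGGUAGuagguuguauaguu
let-7b-5p: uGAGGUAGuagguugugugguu
let-7c-5p: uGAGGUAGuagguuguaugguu
let-7d-5p: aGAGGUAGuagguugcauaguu
let-7e-5p: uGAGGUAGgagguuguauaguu
let-7f-5p: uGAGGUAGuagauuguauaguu
let-7g-5p: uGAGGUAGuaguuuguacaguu
let-7i-5p: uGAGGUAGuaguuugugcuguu
miR-98-5p: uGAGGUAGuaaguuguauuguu

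Counted from the 5′ end, with the let-7b base first, let-7c differed from let-7b only by G17A, and let-7a by G17A and G19A. let-7i differed by G12U, U18C and G19U, and let-7g by G12U, G17A, U18C and G19A. The number of mismatches allowed in mapping is not given in the sources used here, so let-7b and let-7c could share reads, and their counts are uncertain to that extent.

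The let-7b gene, *Mirlet7b*, lies at chr15:85707319-85707403 (GRCm38, plus strand), in an exon of the noncoding transcript *Lncppara*. *Mirlet7c-2*, at chr15:85706603-85706697, is in an exon of the same transcript with 621 bases between the hairpins. Below are the let-7b hairpin, with the mature 5p arm in capitals (bases 7 to 28), and the guide that the study designed to delete let-7b, with the bases it shares with the mature miRNA in capitals.
let-7b hairpin: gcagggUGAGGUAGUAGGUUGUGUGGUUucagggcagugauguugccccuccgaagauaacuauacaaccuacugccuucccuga
let-7b guide: gggTGAGGTAGTAGGTTGTG

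The guide matched *Mirlet7b* with 0 mismatches followed by TGG, a PAM of Cas9. Counted from the 5′ end with the guide base first, *Mirlet7c-2* had 1 mismatch (G20A) and *Mirlet7c-1* had 2 (G3T and G20A), both also followed by TGG. In the hairpins of the other members the best match had 2 to 4 mismatches and no GG after it. Cutting at any of these sites was not measured in these data.

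The other members lie elsewhere. *Mirlet7a-1*, *Mirlet7f-1* and *Mirlet7d* form a cluster on chromosome 13 (chr13:48538179-48538272, chr13:48537829-48537917 and chr13:48536012-48536114, minus strand) in an exon of the lincRNA *6720427I07Rik*. *Mirlet7a-2* (chr9:41536716-41536811) lies in an intron of the noncoding transcript *3110039I08Rik*, near *Mir100* and *Mir125b-1*, *Mirlet7c-1* (chr16:77599657-77599750) in an intron of *Mir99ahg* beside *Mir99a*, and *Mirlet7e* (chr17:17830352-17830444) in an intron of *Spaca6* beside *Mir125a*. *Mirlet7f-2* (chrX:151912346-151912428) and *Mir98* (chrX:151913214-151913321) share an intron of *Huwe1*. *Mirlet7g* (chr9:106178840-106178927) is in an intron of *Wdr82*, and *Mirlet7i* (chr10:122985640-122985724, minus strand) in an exon of the pseudogene *D630033A02Rik*. let-7a, let-7c and let-7f can each come from more than 1 gene, which the mature counts do not separate.

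Total miRNA counts ran from 45242 to 26970637 a library, and from 45242 to 2394918 in the dissected embryos, so that 3 counts were worth 66.3 CPM in the shallowest library and 0.111 CPM in the deepest. Over 118 pairs of libraries of the same group, the lowest chi-square per degree of freedom was 4.20, so no 2 libraries agreed within counting noise. This test and the floor of 3 counts cover counting error only, since amplified reads are not independent molecules. The miR-302/367 cluster, an epiblast marker, summed to between 130389 and 212606 CPM in Epi control and to between 17588 and 45944 CPM in Exe control. Markers of Exe and trophoblast (6 miRNAs, miR-467c and miR-297a among them) summed to between 44347 and 77252 CPM in Exe control and to between 2258 and 29994 CPM in Epi control. One E6.5 SC WT library (replicate 3) stood apart, with 21252 CPM of this marker against 195381 and 214514 CPM in the other WT libraries. The 2 AG-haESC libraries labelled Mir-6KO went against their label. The 5 other targeted miRNA genes summed to 74587 and 91039 CPM there, against 935 to 1057 CPM in O48 and 21205 to 21907 CPM in WT, and the miR-302/367 cluster was at 239331 and 268002 CPM, against 3659 to 3914 CPM in WT cells and 178106 to 220309 CPM in E7.5 SC control embryos. let-7b itself was also counted in them (984 and 252 counts). They are called the libraries labelled Mir-6KO below.

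By group median, the summed let-7 level was highest in O48 and then in AG-haESC WT, and lowest in E7.5 Epi *Dnmt1*-KO and E7.5 Epi *Dnmt*-null. Single libraries departed from this order, with 9523 CPM in E6.5 Exe *Dnmt1*-KO replicate 4 and 544 CPM in E6.5 Epi *Dnmt*-null replicate 4. The summed CPM of the 9 members ran from 8303 to 8504 in AG-haESC WT and from 14289 to 19015 in O48. In control embryos it was 876 to 1478 CPM in E6.5 Epi, 629 to 837 CPM in E7.5 Epi, 851 to 1272 CPM in E7.5 Exe and 1394 to 6084 CPM in E6.5 Exe. The 3 E6.5 SC groups other than DKO;*Dnmt*-null lay at 1329 to 1707 CPM in WT, 2180 to 2415 CPM in *Dnmt*-null and 1280 to 1532 CPM in DKO. DKO;*Dnmt*-null SC embryos, which were in a table of their own, were at 3469 to 4945 CPM. In the order of group medians, most neighbouring groups overlapped, and those that did not were O48 and AG-haESC WT, E6.5 SC DKO and E6.5 Epi *Dnmt3a/3b*-DKO, and E7.5 Epi *Dnmt3a/3b*-DKO and E7.5 Epi control. In bulk samples, more cells of a type and more miRNA per cell cannot be told apart.

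**Figure D1:**
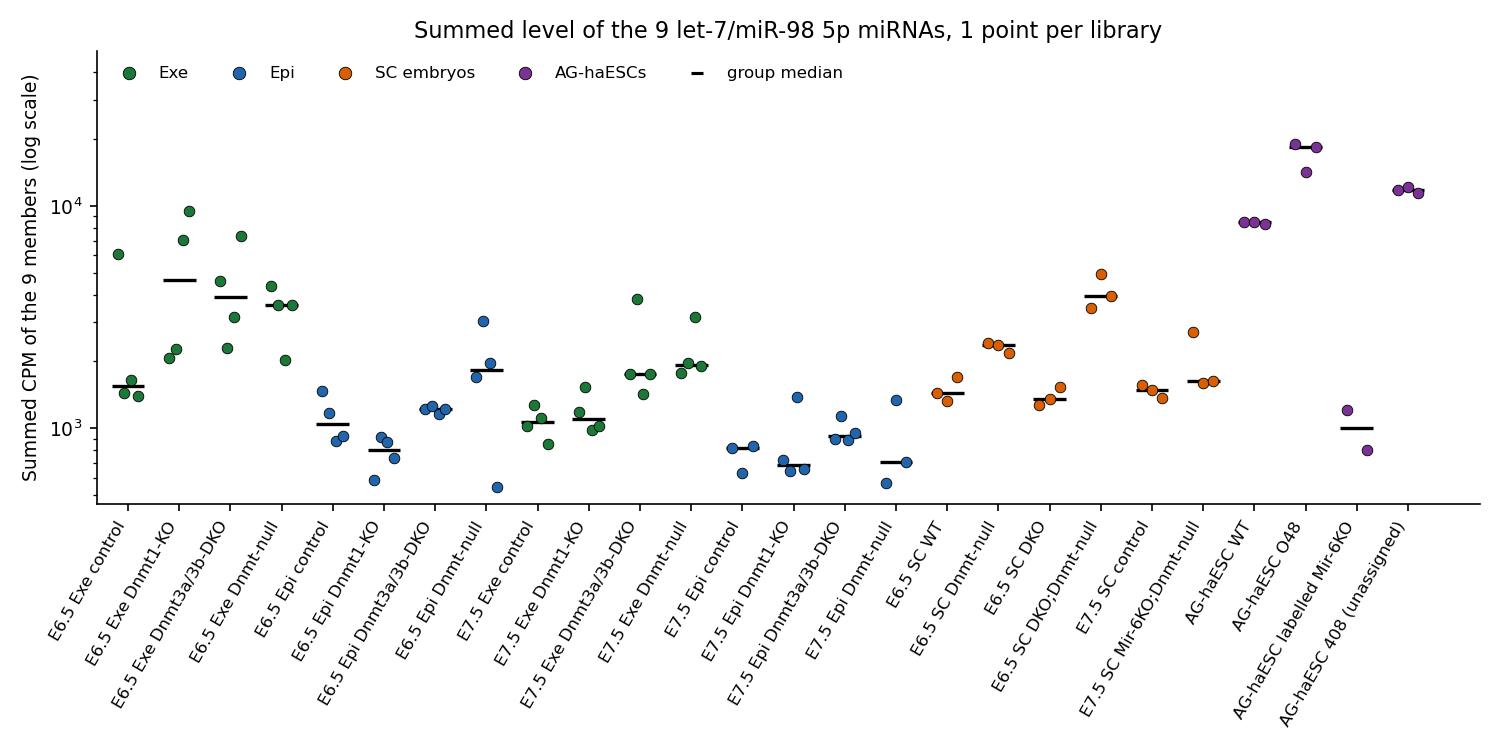
Summed level of the 9 let-7 and miR-98 5p members in each library (points, CPM on a log axis) by group, with the median of each group marked. The AG-haESC WT libraries lie between 8303 and 8504 CPM and the E7.5 Epi control libraries between 629 and 837 CPM.

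let-7b-5p was a minor member in every group. By group median it ranked 5th to 9th of 9, and its median over the embryo libraries was 28.7 CPM (13 counts), against 257 CPM for let-7a, 262 CPM for let-7e and 279 CPM for let-7f. It had over 3 counts in 50 of 62 embryo libraries and 0 counts in 5, and only miR-98 was sparser, with over 3 counts in 24 of 62. The let-7b share of the family count was 0.063 to 0.169% in AG-haESC WT and 4.54 to 7.35% in E6.5 SC WT. It reached 24.2% in 1 E6.5 Epi *Dnmt*-null library and 21.6% in 1 E7.5 Epi *Dnmt1*-KO library, and was 0% in another library of each of these groups. let-7f had the highest median in 13 of the 26 sets of libraries (25 groups and line 408), let-7e in 7 and let-7a in 6.

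**Figure D2:**
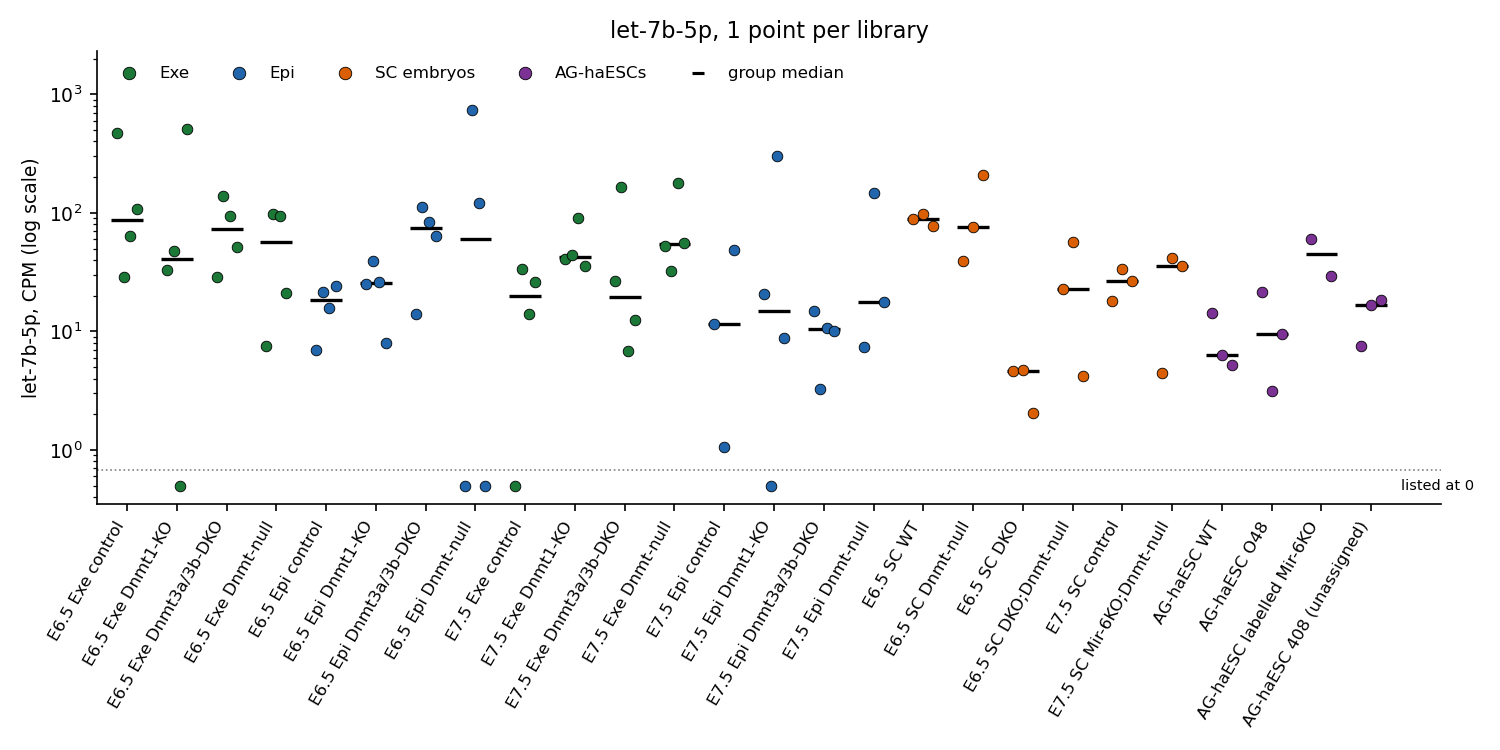
Level of let-7b-5p in each library (points, CPM) by group, with the group median marked. Libraries of 1 group spread widely, as in E6.5 Epi *Dnmt*-null, where they lie at 0, 0, 120 and 736 CPM, and E6.5 SC DKO is low, at 2.06 to 4.70 CPM.

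Tissue and stage were compared in the control embryos by edgeR's quasi-likelihood test, and a miRNA was called changed at a Benjamini-Hochberg adjusted p under 0.05 over all miRNAs tested. At E6.5, 1 of 8 tested members was higher in Exe than in Epi and 0 were lower, against 29.4% of all 558 miRNAs called. The log2 fold changes of the 8 members ran from 0.27 to 3.18 with a median of 0.91, beside a median of -0.16 over all miRNAs tested.

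let-7a-5p, the called member, was at 2160, 396, 361 and 364 CPM in Exe and at 272, 178, 139 and 183 CPM in Epi. The groups did not overlap, and Exe replicate 1, the shallowest library of its group, was far above the others. The log2 fold change was 2.01 (SE 0.52, adjusted p = 0.00761), and without that library it was 0.88 (SE 0.30, adjusted p = 0.036).

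let-7b was at 471, 28.8, 64.3 and 109 CPM in Exe and at 6.99, 21.3, 15.6 and 24 CPM in Epi at E6.5. All Exe libraries lay above all Epi libraries, but the Exe values rest on 4 to 31 counts and the Epi values on 2 to 11. The log2 fold change of 3.18 (SE 1.19) missed the threshold by edgeR (adjusted p = 0.0518) and passed it by DESeq2 (3.10, adjusted p = 0.0144). Without Exe replicate 1 it was 1.90 (adjusted p = 0.222), and without Exe replicate 2 it was 3.56 (adjusted p = 0.0397).

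At E7.5, 0 of 8 members were called between Exe and Epi by edgeR, against 33.2% of all miRNAs. The unadjusted p was under 0.05 for 1 member against 41.2% of all miRNAs, and DESeq2 called 2, let-7e (0.91, adjusted p = 0.0337) and let-7c (-1.48, adjusted p = 0.0386). let-7b differed by -0.25 on the log2 scale (SE 1.15, adjusted p = 0.924). The log2 fold changes of the members ran from -1.34 to 1.51.

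From E6.5 to E7.5, let-7a and let-7c were lower in Exe control, 2 of 8 members against 14.3% of all miRNAs called. On the log2 scale the difference was -1.87 for let-7a (SE 0.52, adjusted p = 0.0193) and -2.34 for let-7c (SE 0.65, adjusted p = 0.0193). let-7a was at 202 to 250.2 CPM at E7.5, below every E6.5 library. let-7c was at 426, 64.7, 44.5 and 173 CPM at E6.5 and at 23.3, 46.7, 39.1 and 24 CPM at E7.5, so its groups overlapped. Both calls were lost without E6.5 Exe control replicate 1, at -0.74 for let-7a (adjusted p = 0.113) and -1.46 for let-7c (adjusted p = 0.0748). The let-7a call was also lost without E7.5 Exe control replicate 3 or 4 (-1.81 and -1.84), and the let-7c call without E7.5 replicate 1 or 4 (-2.19 and -2.21). With only the 2 groups in the edgeR fit both were lost, at -1.82 for let-7a (adjusted p = 0.0597) and -2.30 for let-7c (adjusted p = 0.0981). With the replicate number as a block, the let-7c call was lost (-2.08, adjusted p = 0.0799 by edgeR). All 8 members had a log2 fold change below 0, from -3.13 for let-7b (SE 1.16, adjusted p = 0.0849) to -0.23. Endothelium markers went from 179 to 302 CPM at E6.5 up to 1350.5 to 3075 CPM at E7.5. The epiblast marker went from 17588 to 30822 CPM up to 33368 to 45944 CPM. Markers of pluripotent cells went from 66493 to 99537 CPM down to 41963 to 53401 CPM. Liver and muscle markers went from 19.8 to 108.7 CPM up to 109.2 to 330 CPM. The other marker lists overlapped between the stages. The part of these markers in the let-7 values was not tested.

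In Epi control, 0 of 8 members were called between E7.5 and E6.5, against 26.9% of all miRNAs, and 0 had an unadjusted p under 0.05 by edgeR against 36% of all. DESeq2 also called 0. let-7b was at 11.6, 1.06 and 48.7 CPM at E7.5, which spans the whole E6.5 range, with a difference of 0.30 on the log2 scale (SE 1.18, adjusted p = 0.907).

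The mutant groups were compared with control within each tissue and stage. In E6.5 Exe, edgeR called 0 of 8 members in each mutant, against 0% of all 376 miRNAs in *Dnmt1*-KO, 0.532% in *Dnmt3a/3b*-DKO and 0.532% in *Dnmt*-null. At an unadjusted p under 0.05 there was 1 member in each, let-7g-5p, against 9.04%, 9.04% and 13.6% of all miRNAs, and DESeq2 called 0 members in each. The members' median log2 fold change was 0.69, 0.50 and 0.12, and without E6.5 Exe control replicate 1 it was 1.82, 1.25 and 1.15.

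let-7g was at 45.6, 144, 54.4 and 166 CPM in E6.5 Exe control, from 3 to 26 counts. It was at 144, 136, 788 and 898 CPM in *Dnmt1*-KO, at 326, 184, 253 and 520.2 CPM in *Dnmt3a/3b*-DKO, and at 459, 432, 214 and 443 CPM in *Dnmt*-null. The *Dnmt3a/3b*-DKO and *Dnmt*-null libraries all lay above control and the *Dnmt1*-KO libraries overlapped it. The *Dnmt1*-KO library with the most let-7g, replicate 4, also had the most let-7b (508 CPM) and let-7i (1305 CPM), and its blood markers (6 miRNAs, miR-451a and miR-223 among them) summed to 8515 CPM and its stroma markers (5, with miR-143 and miR-145a) to 4228 CPM, against 158 to 608 and 153 to 684 CPM in control. The part of these markers in the values was not tested. The log2 fold changes were 2.01 (adjusted p = 0.208), 1.45 (adjusted p = 0.546) and 1.67 (adjusted p = 0.216), none under 0.05. let-7b was at 33.1, 47.8, 0 and 508 CPM in *Dnmt1*-KO and at 7.52, 97.9, 93.4 and 21.1 CPM in *Dnmt*-null, both overlapping control. Its log2 fold changes were -0.37 (SE 1.2, adjusted p = 0.955), -1.23 (SE 1.22, adjusted p = 0.941) and -1.78 (SE 1.27, adjusted p = 0.640) in the same order of mutants.

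In E6.5 Epi, edgeR called 0 of 8 members in *Dnmt1*-KO, in *Dnmt3a/3b*-DKO and in *Dnmt*-null, against 0.733%, 3.42% and 13% of all 409 miRNAs. At an unadjusted p under 0.05 there was 1 member in *Dnmt1*-KO (let-7e, lower in the mutant), 0 in *Dnmt3a/3b*-DKO and 2 in *Dnmt*-null (let-7b and let-7c), against 12.2%, 15.4% and 25.9% of all miRNAs. DESeq2 called 0, 0 and 2 members.

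let-7b in E6.5 Epi *Dnmt*-null was at 0, 736, 120 and 0 CPM, from 0, 83, 8 and 0 counts, and at 6.99 to 24 CPM in control. A pair of mutant libraries lay above every control library and the other two had no count, at a depth where 3 counts would already exceed the control level. The log2 fold change was 3.48 (SE 1.17, adjusted p = 0.0547) by edgeR and 3.36 (adjusted p = 0.0156) by DESeq2. Without replicate 2 it was 1.0 (adjusted p = 0.645), and without replicate 1 or 4, which had no count, it was 3.94 and 3.88 (adjusted p = 0.0205 and 0.0186).

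let-7c, which has a gene beside that of let-7b and another on chromosome 16, was at 729, 275, 315 and 179 CPM in E6.5 Epi *Dnmt*-null and at 97.8, 67.6, 118 and 109 CPM in control. Every mutant library lay above every control library, with a difference of 1.76 on the log2 scale (SE 0.63, adjusted p = 0.0735) by edgeR and 1.68 (adjusted p = 0.0172) by DESeq2. In the same libraries, the miR-302/367 cluster was at 48473 to 100114 CPM against 130389 to 200354 CPM in control, the miR-290 to miR-295 list at 18788 to 39577 against 59287 to 63256 CPM, and the blood markers at 165 to 420 against 114 to 160 CPM. Their part in these values was not tested. In *Dnmt1*-KO and *Dnmt3a/3b*-DKO, let-7b differed from control by 0.46 (SE 1.12, adjusted p = 0.969) and 1.88 (SE 1.13, adjusted p = 0.410).

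In E7.5 Exe, let-7c was higher in *Dnmt3a/3b*-DKO, and let-7a and let-7c were higher in *Dnmt*-null. edgeR called 1 of 8 members in *Dnmt3a/3b*-DKO against 3.02% of all 597 miRNAs, and 2 of 8 in *Dnmt*-null against 9.88%. In *Dnmt1*-KO it called 0 of 8 against 5.03%, with 1 at an unadjusted p under 0.05 (let-7a) against 18.4% of all, and DESeq2 called 0. The median log2 fold change of the members was 1.11 in *Dnmt3a/3b*-DKO and 1.07 in *Dnmt*-null, with all 8 above 0 in both, and 0.04 in *Dnmt1*-KO. Without *Dnmt3a/3b*-DKO replicate 2 the median there was 0.26. The 3 comparisons share their control libraries.

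let-7c was at 23.3, 46.7, 39.1 and 24 CPM in E7.5 Exe control, at 164, 374, 211 and 176 CPM in *Dnmt3a/3b*-DKO and at 109, 137, 510.4 and 218 CPM in *Dnmt*-null. Both mutants lay wholly above control, while *Dnmt1*-KO, at 3.06, 45.9, 133 and 85.1 CPM, overlapped it. On the log2 scale the difference was 2.72 (SE 0.73, adjusted p = 0.0457) in *Dnmt3a/3b*-DKO and 2.89 (SE 0.73, adjusted p = 0.0140) in *Dnmt*-null. The call in *Dnmt3a/3b*-DKO was lost on leaving out any 1 library, with the log2 fold change between 2.36 and 2.96. The call in *Dnmt*-null was lost without *Dnmt*-null replicate 3 (2.26, adjusted p = 0.0664) and without control replicate 1 or 4 (2.79 and 2.73).

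let-7a was at 250.2, 219, 205 and 202 CPM in E7.5 Exe control and at 379, 517, 701 and 434 CPM in *Dnmt*-null, again without overlap. The log2 fold change was 1.24 (SE 0.35, adjusted p = 0.0292), and the call was lost without *Dnmt*-null replicate 2 or 3 (1.23 and 1.05) or control replicate 2, 3 or 4 (1.23, 1.19 and 1.18). In *Dnmt3a/3b*-DKO it was 1.22 (SE 0.35, adjusted p = 0.0803), with all 4 libraries above control. The miR-302/367 cluster was at 17252 to 27413 CPM in *Dnmt*-null and at 23667 to 37562 CPM in *Dnmt3a/3b*-DKO, against 33368 to 45944 CPM in control. *Dnmt3a/3b*-DKO replicate 2, the library with the highest let-7 sum, had blood markers at 6412 CPM, against 380 to 656 CPM in the rest of its group and 238 to 816 CPM in control. Endoderm markers (miR-192 and miR-194) were at 5834 to 7288 CPM in *Dnmt*-null replicates 1 to 3, at 1459 CPM in replicate 4 and at 2845 to 4296 CPM in control. The part of these markers in the let-7 values was not tested.

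let-7b was not called in any of the 3 E7.5 Exe mutants. It was at 0, 33.9, 14.0 and 26 CPM in control, at 52.6, 32, 179.6 and 55.9 CPM in *Dnmt*-null and at 26.4, 166, 6.87 and 12.5 CPM in *Dnmt3a/3b*-DKO, so both overlapped control. Its log2 fold change was 2.13 (SE 1.06, adjusted p = 0.258) in *Dnmt*-null and 1.46 (SE 1.03, adjusted p = 0.826) in *Dnmt3a/3b*-DKO. Without *Dnmt3a/3b*-DKO replicate 2 the latter was -0.38. In *Dnmt1*-KO, at 40.9, 44.4, 90.8 and 35.9 CPM, every library lay above control, with a difference of 1.53 on the log2 scale (SE 1.04, adjusted p = 0.480).

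In E7.5 Epi, edgeR called 0 of 8 members in *Dnmt1*-KO, in *Dnmt3a/3b*-DKO and in *Dnmt*-null, against 16.3%, 7.67% and 33.7% of all 652 miRNAs. At an unadjusted p under 0.05 there was 1 member in *Dnmt1*-KO (let-7i, lower in the mutant), 1 in *Dnmt3a/3b*-DKO (let-7c, higher) and 0 in *Dnmt*-null, against 28.5%, 20.9% and 42.6% of all miRNAs. DESeq2 called 0, 1 and 0 members. In *Dnmt*-null the members' log2 fold changes ran from -0.90 to 1.21 with a median of 0.15, or -0.45 without *Dnmt*-null replicate 2. In *Dnmt1*-KO the median was 0.15, or -0.38 without *Dnmt1*-KO replicate 3.

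let-7c was at 184, 202, 179 and 248 CPM in E7.5 Epi *Dnmt3a/3b*-DKO and at 90.3, 59.1 and 88.7 CPM in control. All mutant libraries lay above control, with a difference of 1.26 on the log2 scale (SE 0.41, adjusted p = 0.0759) by edgeR and 1.21 (adjusted p = 0.0282) by DESeq2. Endoderm markers were at 1122 to 1983 CPM in the mutant and at 405 to 868 CPM in control. Exe and trophoblast markers were at 2832 to 6195 and 2258 to 2727 CPM, and the miR-290 to miR-295 list at 15585 to 21656.5 and 14449 to 14924 CPM. The part of these markers was not tested.

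let-7b in E7.5 Epi was at 11.6, 1.06 and 48.7 CPM in control, at 20.7, 0, 299.7 and 8.84 CPM in *Dnmt1*-KO and at 7.33, 148 and 17.8 CPM in *Dnmt*-null. A single library was high in each mutant and the rest overlapped control. The log2 fold changes were 1.79 (SE 1.46, adjusted p = 0.472) and 1.21 (SE 1.51, adjusted p = 0.591), and -1.22 and -0.88 without the high library. In *Dnmt3a/3b*-DKO it was -1.17 (SE 1.41, adjusted p = 0.755).

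**Figure D3:**
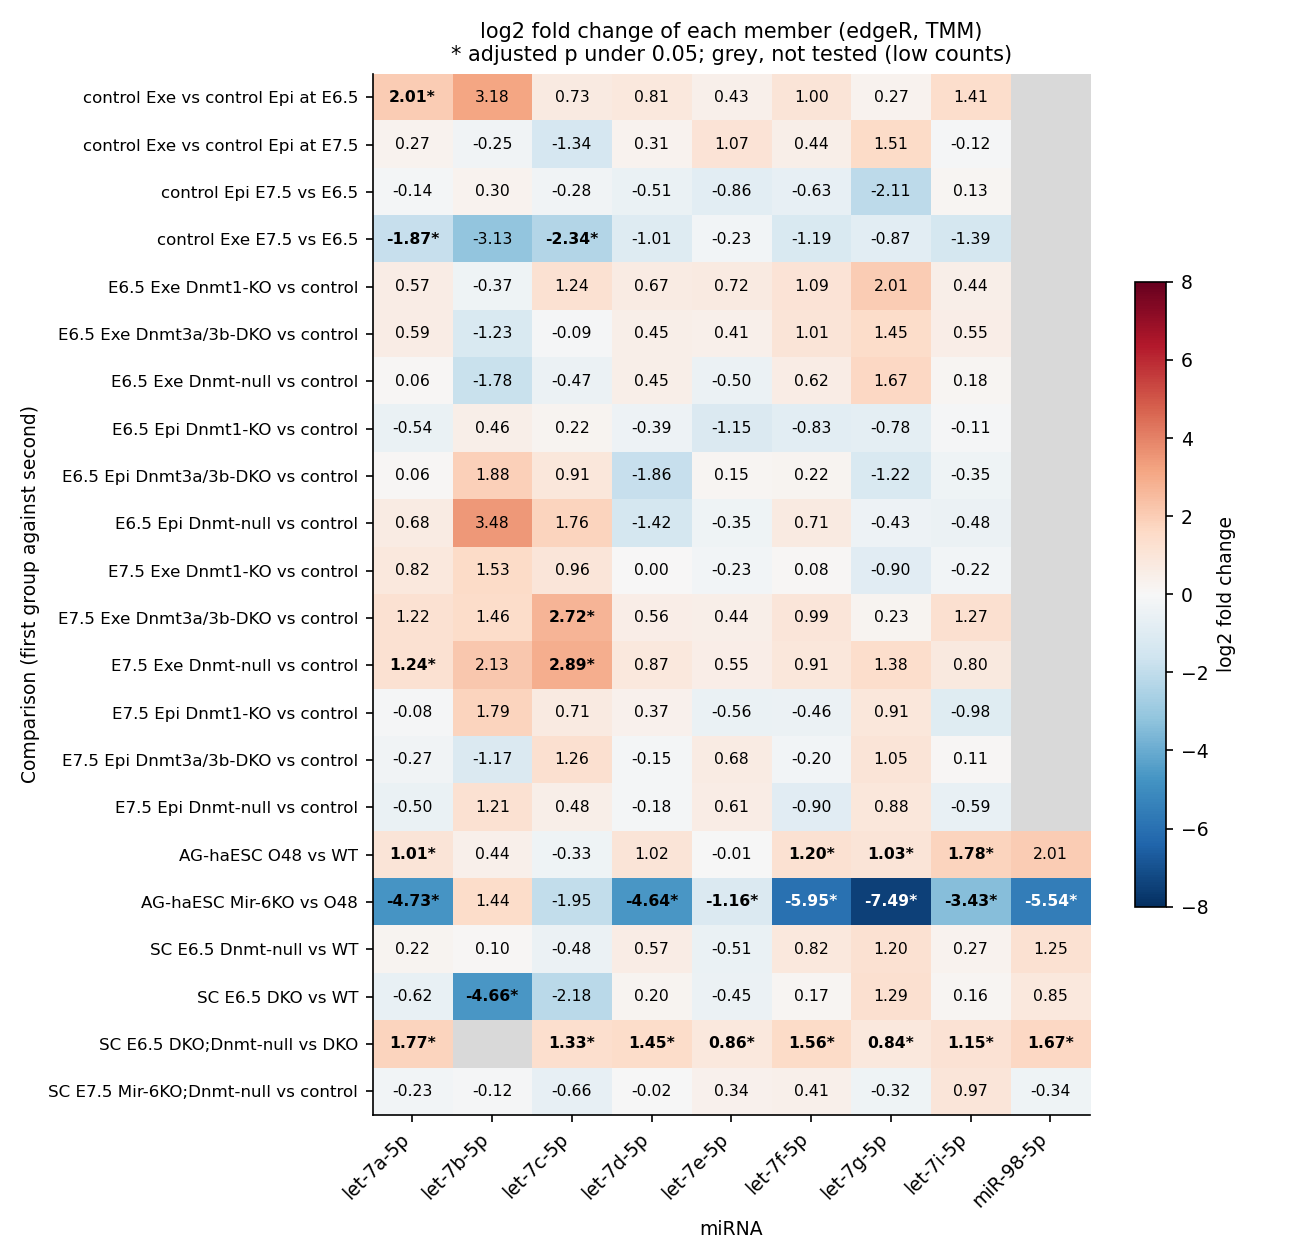
Log2 fold change of each member in each comparison, from edgeR, with called members (adjusted p under 0.05) marked. Calls are few in the dissected embryos, where let-7a and let-7c are the called members, and 4 members are called in O48 against WT, 7 in the libraries labelled Mir-6KO against O48 and 8 in DKO;*Dnmt*-null SC embryos against DKO.

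In E6.5 SC embryos, let-7b was lower in DKO than in WT, and it was the 1 miRNA of 461 that edgeR called (0.217% of all). let-7b was at 88.7, 97.6 and 77.4 CPM in WT (30, 51 and 20 counts) and at 4.65, 4.70 and 2.06 CPM in DKO (10, 11 and 5 counts). The groups were far apart, with the lowest WT library above the highest DKO library. On the log2 scale the difference was -4.66 (SE 0.70, adjusted p = 0.0248). It was lost without any of the DKO replicates 1, 2 and 3 or without WT replicate 2, where the log2 fold change was -4.78, -4.78, -4.35 and -4.65 and the adjusted p ran from 0.0904 to 0.223. It was also lost with the replicate number as a block (-4.61, adjusted p = 0.0889). The DKO libraries were the deeper ones, at 2150520 to 2425038 total counts against 258279 to 522390 in WT. Without WT replicate 3, the library that stood apart, the log2 fold change was -4.58 (adjusted p = 0.0252). Blood markers were at 97.6 to 283 CPM in WT and at 41.0 to 57.7 CPM in DKO, and stroma markers at 111 to 154 and 169 to 196 CPM. Exe and trophoblast markers were at 1649 to 16499 CPM in WT and at 18781 to 21565 CPM in DKO. The miR-290 to miR-295 list was at 3272 to 48056 and 54779 to 58965 CPM. Endothelium markers were at 77.4 to 249 and 257 to 282 CPM, and liver and muscle markers at 51.7 to 170 and 29.3 to 43.7 CPM. The part of these markers in the let-7b value was not tested.

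let-7c was at 172, 209 and 294 CPM in E6.5 SC WT and at 49.3, 57.3 and 66.8 CPM in DKO. These groups did not overlap either, with a difference of -2.18 on the log2 scale (SE 0.43, adjusted p = 0.0605) by edgeR and -2.26 (adjusted p = 4.42e-05) by DESeq2. None of the other 7 members was called. let-7a, at 257, 256 and 315 CPM in DKO, overlapped WT, at 266, 235 and 549.8 CPM, and let-7g was at 141, 139.7 and 150.1 CPM in DKO against 76.9, 24.9 and 54.2 CPM in WT (log2 fold change 1.29, adjusted p = 0.286). The median log2 fold change of the 9 members was 0.16, beside 0.10 over all miRNAs.

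Between E6.5 SC *Dnmt*-null and WT, edgeR called 0 of 9 members against 1.52% of all miRNAs. At an unadjusted p under 0.05 there were 2, let-7f and let-7g, both higher in *Dnmt*-null, against 18.9% of all, and DESeq2 called 0. let-7f was at 1026, 766 and 641 CPM in *Dnmt*-null and at 482, 314 and 325 CPM in WT, without overlap, with a difference of 0.82 on the log2 scale (SE 0.33, adjusted p = 0.238). Endoderm markers were at 2999 to 4343 CPM in *Dnmt*-null and at 1751 to 2145 CPM in WT, and stroma markers at 206 to 312 and 111 to 154 CPM. The part of these markers was not tested. let-7b was at 38.9, 76.6 and 210.3 CPM in *Dnmt*-null, which spans the WT range, with a difference of 0.10 on the log2 scale (SE 0.60, adjusted p = 0.975).

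All 8 tested members were higher in E6.5 DKO;*Dnmt*-null SC embryos than in DKO, against 35.3% of all 603 miRNAs called. The DKO;*Dnmt*-null libraries were in a separate table with 895 miRNAs, so the table and the genotype cannot be told apart. Markers moved between the groups as well, from DKO to DKO;*Dnmt*-null. The miR-302/367 cluster went from 177971 to 196784 CPM down to 130119 to 147052 CPM. Exe and trophoblast markers went from 18781 to 21565 CPM up to 21680 to 27418 CPM. Endoderm markers went from 1544 to 1905 CPM up to 2241 to 3289 CPM, and blood markers from 41.0 to 57.7 CPM up to 114 to 169 CPM. Stroma markers went from 169 to 196 CPM up to 220.2 to 304 CPM. The part of these markers in the let-7 values was not tested. let-7a was at 900.1, 1236 and 954 CPM against 257, 256 and 315 CPM, with a difference of 1.77 on the log2 scale (SE 0.13, adjusted p = 3.58e-09). let-7f was at 1216, 1857 and 1542 CPM against 450.1, 438 and 546 CPM, with a difference of 1.56 on the log2 scale (SE 0.14, adjusted p = 4.26e-08). In both, every DKO;*Dnmt*-null library lay more than 1 log2 unit above every DKO library.

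The log2 fold changes of let-7c, let-7d, let-7e, let-7g, let-7i and miR-98 were 1.33, 1.45, 0.86, 0.84, 1.15 and 1.67, with adjusted p between 3.82e-06 and 0.000667. let-7b missed the filter on low counts and was the 1 member not tested. It was at 22.7, 56.5 and 4.17 CPM in DKO;*Dnmt*-null, from 31, 10 and 1 counts, with the lowest library inside the DKO range. Without the filter its log2 fold change was 2.59 (SE 0.70, adjusted p = 0.00155).

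**Figure D4:**
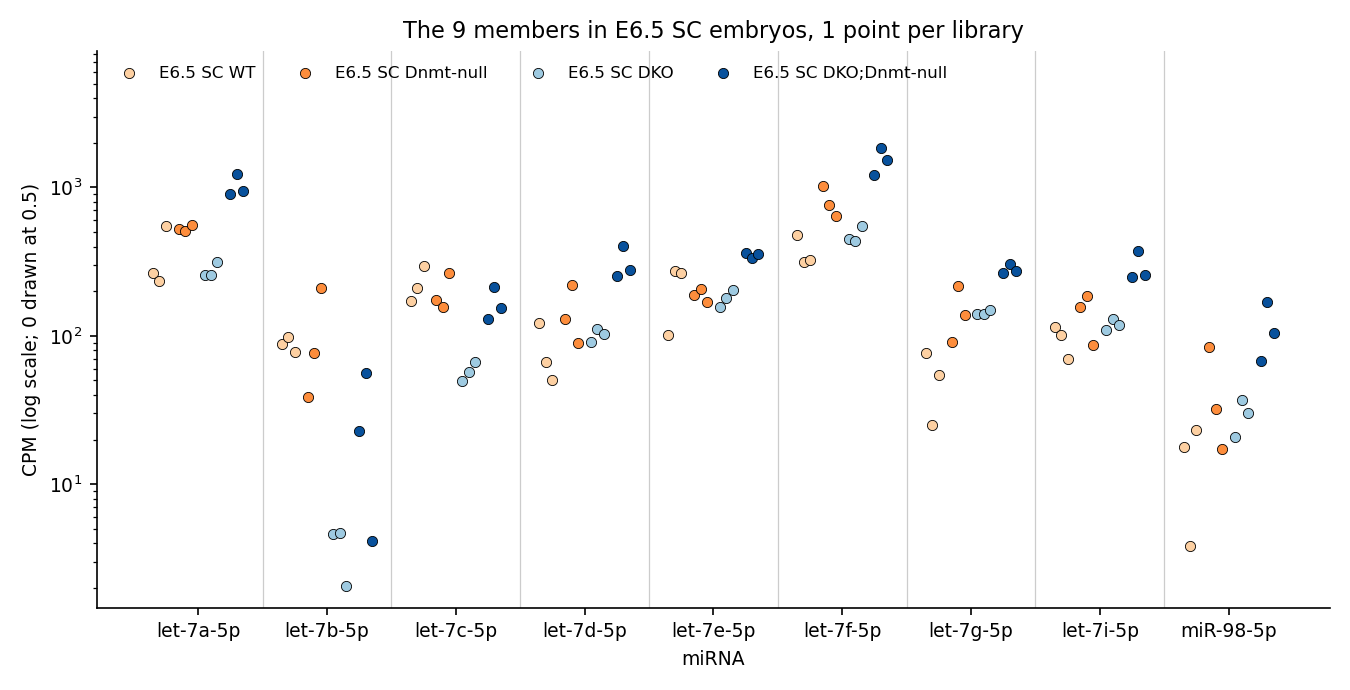
Level of each member (CPM, log axis) in each E6.5 SC library, by group. let-7b and let-7c are low in DKO, at 2.06 to 4.70 and 49.3 to 66.8 CPM, while let-7a, let-7f and the other members are high in DKO;*Dnmt*-null.

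At E7.5, edgeR called 0 of 9 members between Mir-6KO;*Dnmt*-null and control SC embryos, against 3.08% of all 585 miRNAs. At an unadjusted p under 0.05 there were 0 members against 12.3% of all, and DESeq2 called 0. let-7b was at 18.0, 33.4 and 26.7 CPM in control (486, 637 and 355 counts) and at 4.42, 41.3 and 35.5 CPM in Mir-6KO;*Dnmt*-null (41, 695 and 304 counts). 1 mutant library was below control and the others were above it, with a difference of -0.12 on the log2 scale (SE 1.18, adjusted p = 0.995). The groups differ by the deletion of let-7b and the other miRNA genes and by the loss of the *Dnmt* genes. Effects of these on let-7b cannot be told apart. The deletion is on the AG-haESC genome only, and the 5 other targeted miRNA genes summed to 82455 to 111537 CPM in these embryos against 111955 to 143498 CPM in control. The same first mutant library was the high one for let-7a (557 CPM against 178 and 182 CPM) and let-7e (1354 CPM against 615 and 549 CPM) and the low one for let-7c (28.1 CPM against 129 and 130.1 CPM).

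In AG-haESCs, 4 of 9 members were higher in O48 than in WT and 0 were lower, against 13.7% of all 773 miRNAs called. They were let-7a, let-7f, let-7g and let-7i. let-7f was at 8569, 5919 and 8123 CPM in O48 and at 3332, 3388 and 3308 CPM in WT, with a difference of 1.2 on the log2 scale (SE 0.15, adjusted p = 0.00094). let-7i was at 846, 666 and 849.9 CPM against 259, 242 and 203 CPM, with a difference of 1.78 on the log2 scale (SE 0.18, adjusted p = 0.000287). Neither overlapped, and O48 replicate 2 was the lowest O48 library for both.

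The log2 fold change was 1.01 for let-7a (SE 0.21, adjusted p = 0.0153) and 1.03 for let-7g (SE 0.24, adjusted p = 0.0236). Both calls were lost on leaving out any 1 library other than O48 replicate 2, with the difference between 0.98 and 1.06 for let-7a and between 0.98 and 1.08 for let-7g, and let-7f and let-7i then stayed called. The let-7g call was also lost with the replicate number as a block (1.04, adjusted p = 0.0644). let-7e was not called, at 638, 618 and 551 CPM in O48 and at 641, 592 and 622 CPM in WT. let-7b was at 21.5, 3.11 and 9.44 CPM in O48 and at 14.4, 6.38 and 5.24 CPM in WT, overlapping, with a difference of 0.44 on the log2 scale (SE 0.78, adjusted p = 0.871), or -0.42 without O48 replicate 1. The median over all miRNAs was -0.28 with TMM and 0.09 with DESeq2's size factors, a shift of 0.37, and the members' median was 1.02 and 1.41, so the members lay above the rest under both. The miR-290 to miR-295 list was at 67214 to 79297 CPM in O48 and at 58686 to 61045 CPM in WT, and the miR-302/367 cluster at 924 to 1670 and 3659 to 3914 CPM. Endoderm markers were at 1030 to 1141 and 3046 to 3331 CPM, and Exe and trophoblast markers at 2464 to 3505 and 4524 to 4758 CPM. The part of these markers was not tested.

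In the libraries labelled Mir-6KO, 7 of 9 members were lower than in O48, against 52.1% of all miRNAs called. Since the label is in doubt, these differences are between these libraries and O48 and are not read as an effect of the deletion. let-7g was at 23.4 and 42.4 CPM, against 4513, 3521 and 4577 CPM in O48, with a difference of -7.49 on the log2 scale (SE 0.38, adjusted p = 1.68e-06). let-7f was at 172 and 174 CPM, with a difference of -5.95 on the log2 scale (SE 0.22, adjusted p = 4.35e-07). The log2 fold changes of let-7a, let-7d, miR-98, let-7i and let-7e were -4.73, -4.64, -5.54, -3.43 and -1.16, with adjusted p between 4.66e-06 and 0.0218. miR-98 had 0 counts in 1 of the 2 libraries, and its call was lost without O48 replicate 1 (adjusted p = 0.0513). On leaving out 1 library, its log2 fold change ran from -13.6 to -4.70 and that of let-7d from -6.32 to -4.03. With only these 2 groups in the fit, the calls of let-7e (-0.98, adjusted p = 0.109) and miR-98 (-5.32, adjusted p = 0.0852) were lost.

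let-7b, the gene deleted by the label, was not called. It was at 59.6 and 29.5 CPM, above all O48 libraries (3.11 to 21.5 CPM), with a difference of 1.44 on the log2 scale (SE 0.85, adjusted p = 0.174). let-7c, at 15.9 and 87.4 CPM against 211, 63.7 and 159 CPM, overlapped O48 (log2 fold change -1.95, adjusted p = 0.0686 by edgeR). In E7.5 SC control embryos let-7f was at 114 to 324 CPM and let-7g at 5.04 to 75.9 CPM, so the libraries labelled Mir-6KO lay inside the embryo range for both and far below the AG-haESC range. What cells these libraries hold was not tested.

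**Figure D5:**
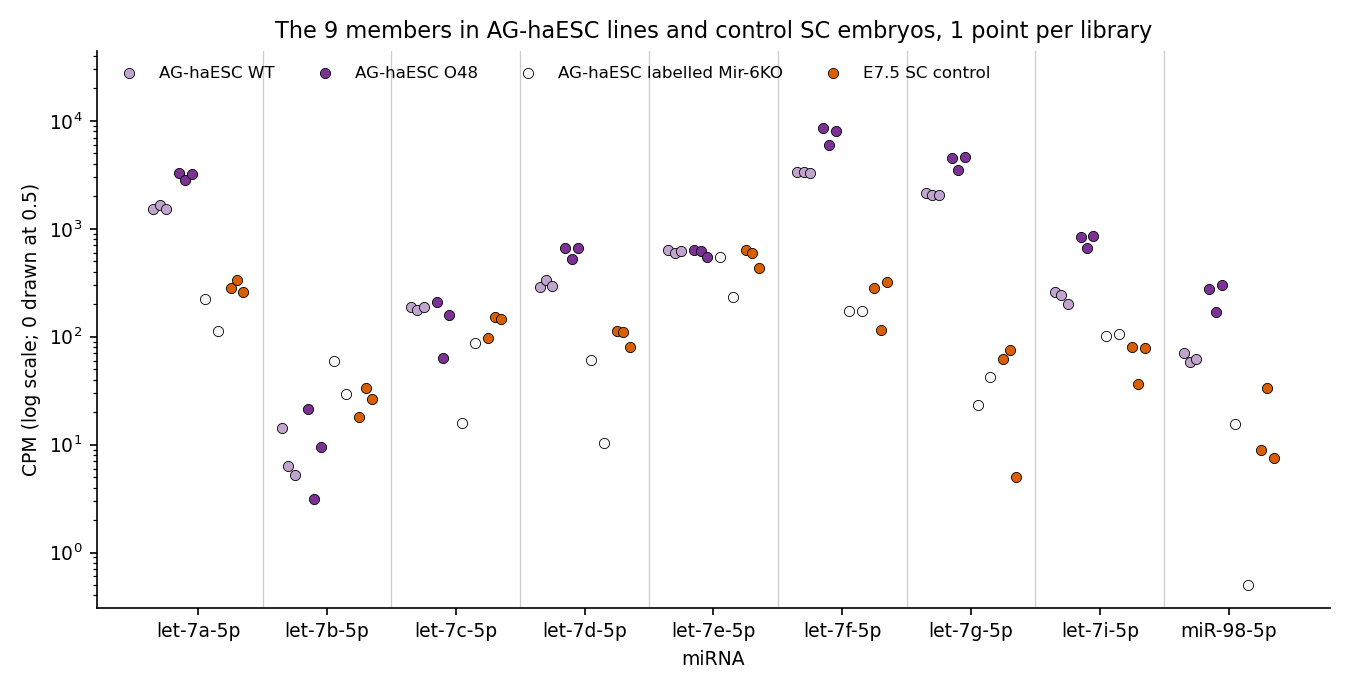
Level of each member (CPM, log axis) in each AG-haESC library of WT, O48 and those labelled Mir-6KO, with E7.5 SC control embryos beside them. let-7a, let-7f and let-7g are at 1533 CPM or more in WT and O48 and at 223 CPM or less in the libraries labelled Mir-6KO.

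Across the 22 comparisons, let-7b was called in 1 of the 21 where it was tested, lower in E6.5 SC DKO. In DKO;*Dnmt*-null against DKO it missed the filter on low counts, and without the filter it was called higher (2.59, adjusted p = 0.00155 by edgeR). let-7a was called in 6 of 22 and let-7c in 4 of 22, and in the dissected embryos these were the 2 members called. The standard error of let-7b was 0.60 to 1.51 on the log2 scale. Over the 62 embryo libraries, the Pearson correlation of log2 CPM between let-7b and the other members ran from 0.46 with let-7a to 0.11 with miR-98, the sparsest member, and was 0.18 with let-7c. let-7a and let-7f correlated at 0.74. The miRNAs outside the family most like let-7b were miR-532-5p (0.40), miR-297a-5p (0.39), miR-5119 (0.37), miR-669b-5p (0.37) and miR-297b-5p (0.36), and those most like let-7a were miR-362-5p (0.72), miR-467e-5p (0.72), miR-466h-5p (0.71), miR-467c-5p (0.68) and miR-466n-3p (0.68). Among these, miR-297a-5p and miR-467c-5p are on the list of Exe and trophoblast markers, and the 62 libraries pool Exe with Epi. These are descriptions, and the libraries share tissue, stage and depth.

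The 3p arms and the names let-7j and let-7k were sparse. Of the 14 listed, 13 had a row, and at most 6 were tested in a comparison. let-7d-3p had over 3 counts in 72 of 91 libraries, and was higher in DKO;*Dnmt*-null SC embryos than in DKO (log2 fold change 1.75, SE 0.41, adjusted p = 0.00242). let-7e-3p was lower in Exe control at E7.5 than at E6.5 (adjusted p = 0.0477), where it was at 0 at E7.5. In the libraries labelled Mir-6KO, let-7a-1-3p and let-7c-2-3p (which had the same counts in all 88 libraries of their table), let-7e-3p and miR-98-3p were lower than in O48 and were at 0.

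The 5 miRNAs whose genes lie beside let-7 genes were examined next to them. In E7.5 Epi *Dnmt*-null, where 33.7% of all miRNAs and 0 let-7 members were called, 3 of the 5 were higher, miR-99a-5p (2.51, adjusted p = 0.0023), miR-99b-5p (1.28, adjusted p = 8.1e-06) and miR-125a-5p (1.0, adjusted p = 0.0304). miR-99a was at 44.0, 367 and 425 CPM there and at 38.3, 46.8 and 40 CPM in control, so 1 mutant library lay inside the control range. The miR-302/367 cluster was at 105333 to 164935 CPM there against 202279 to 212606 CPM in control, and Exe and trophoblast markers at 4470 to 9238 against 2258 to 2727 CPM. The miR-290 to miR-295 list was at 23112 to 29600 against 14449 to 14924 CPM, and stroma markers at 85.7 to 160 against 277 to 413 CPM. The part of these markers was not tested. miR-99a was also higher in *Dnmt1*-KO (1.64) and *Dnmt3a/3b*-DKO (2.34) of E7.5 Epi, and miR-99b in *Dnmt3a/3b*-DKO (0.73), against 16.3% and 7.67% of all miRNAs called. In DKO;*Dnmt*-null SC embryos against DKO, where 8 of 8 let-7 members and 35.3% of all miRNAs were called, miR-99b-5p, miR-125a-5p and miR-125b-5p were lower (-0.46, -0.51 and -1.26). In E6.5 Epi *Dnmt*-null, against 13% of all miRNAs called, miR-99a-5p (2.62, adjusted p = 0.0453) and miR-125b-5p (2.72, adjusted p = 0.0197) were higher. For both, the mutant libraries overlapped control and spread widely. The mean of miR-125b was 770 CPM (SD 1065) against 106 CPM (SD 59.0) in control, and that of miR-99a 242 CPM (SD 234) against 37.5 CPM (SD 18.9).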

How the data were processed

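The values were whole-number read counts of each mature miRNA, deposited by the authors. The authors trimmed adapters with fastp 0.20.1, mapped reads to GRCm38 with Bowtie 1.2.1.1 and then to the mature miRNAs of miRBase, and counted them, with total counts of 45242 to 26970637 a library. The genes behind the labels KO, DKO and TKO were taken from the study's methods. An older copy of the table, with 2 columns of no sample, was not used.

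Counts were tested with edgeR 4.0.16 (quasi-likelihood, TMM scaling, filterByExpr with a minimum count of 10) in R 4.3.3, in 1 model for each tissue and stage, with further models for the controls, AG-haESCs and SC embryos, and p-values were adjusted by Benjamini-Hochberg over all miRNAs tested. The standard error is the log2 fold change divided by the root of F. Alternatives were DESeq2 1.42.0, its size factors, no filter, the 2 groups alone, a replicate block and leaving out each library. All 9 members were named, let-7b everywhere and the others with full values where called, beside 3p arms, gene neighbours and the 5 most alike miRNAs. Exceptions with values but no call were named after their values were seen. The members and lists were chosen with earlier results of these data known. Counting error alone underlies the floor of 3 counts. In 0 comparisons was the correlation of deviations above 0.1 in every pair of libraries with the same number, which does not exclude pairing.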

Additional observations from a re-analysis of the deposited data

Results flagged for a closer look

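In groups of 4 libraries, 30 of the 140 sets examined (each member and the summed let-7 level in each group) held 1 library whose gap to its nearest neighbour, as a share of the range, passed Dixon's 95% critical value. Chance gives about 1 in 20 for independent sets of normally distributed values. The members and their sum in a group are not independent sets. The rate for CPM values, and for sets of a few counts, as for miR-98, was not tested. Values are in CPM. E6.5 Exe control replicate 1 held 2160 for let-7a (361 to 396 in the others), 897 for let-7i (0 to 89.1 in the others) and 6084 for the summed level (1394 to 1658 in the others). E6.5 Exe control replicate 3 held 14.8 for miR-98 (all others at 0). E6.5 Exe *Dnmt1*-KO replicate 4 held 508 for let-7b (0 to 47.8 in the others) and 1305 for let-7i (0 to 88.4 in the others). E6.5 Exe *Dnmt*-null replicate 3 held 214 for let-7g (432 to 459 in the others) and 107 for let-7i (351 to 379 in the others). E6.5 Exe *Dnmt*-null replicate 2 held 65.2 for miR-98 (0 to 7.52 in the others). E6.5 Epi control replicate 2 held 181 for let-7d (47.9 to 69.9 in the others). E6.5 Epi *Dnmt1*-KO replicate 2 held 245 for let-7c (61.6 to 91.6 in the others). E6.5 Epi *Dnmt3a/3b*-DKO replicate 2 held 67.6 for let-7c (223 to 245 in the others). E6.5 Epi *Dnmt*-null replicate 2 held 736 for let-7b (0 to 120 in the others). E6.5 Epi *Dnmt*-null replicate 3 held 255 for let-7g (0 to 8.86 in the others). E7.5 Exe control replicate 1 held 13.3 for miR-98 (0 to 2 in the others). E7.5 Exe *Dnmt1*-KO replicate 3 held 90.8 for let-7b (35.9 to 44.4 in the others). E7.5 Exe *Dnmt1*-KO replicate 2 held 179 for let-7d (36.6 to 49.7 in the others). E7.5 Exe *Dnmt1*-KO replicate 4 held 11.3 for miR-98 (all others at 0). E7.5 Exe *Dnmt3a/3b*-DKO replicate 2 held 166 for let-7b (6.87 to 26.4 in the others), 1169 for let-7f (258 to 343 in the others), 537 for let-7i (93.1 to 137 in the others) and 3825 for the summed level (1434 to 1755 in the others). E7.5 Exe *Dnmt*-null replicate 3 held 179.6 for let-7b (32 to 55.9 in the others) and 3157 for the summed level (1776 to 1971 in the others). E7.5 Epi *Dnmt1*-KO replicate 3 held 299.7 for let-7b (0 to 20.7 in the others), 278 for let-7c (99.1 to 117 in the others) and 1385 for the summed level (642 to 718 in the others). E7.5 Epi *Dnmt1*-KO replicate 2 held 134 for let-7e (96.4 to 102 in the others). E7.5 Epi *Dnmt1*-KO replicate 4 held 4.02 for miR-98 (all others at 0). E7.5 Epi *Dnmt3a/3b*-DKO replicate 2 held 207 for let-7f (144 to 147 in the others). The 3 AG-haESC libraries of line 408, which enter no comparison, had a summed let-7 level of 11854, 12129 and 11416.5 CPM, above the 8303 to 8504 CPM of AG-haESC WT.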

How the results depend on the processing

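DESeq2's size factors (RLE) changed no count of called members. DESeq2 called 2 members in Exe against Epi at E6.5, 2 at E7.5, 2 in E6.5 Epi *Dnmt*-null, 2 in E7.5 Exe *Dnmt3a/3b*-DKO, 1 in E7.5 Epi *Dnmt3a/3b*-DKO and 2 in SC DKO against WT, and gave let-7b as called in Exe against Epi at E6.5 (3.10), Exe E7.5 against E6.5 (-3.20) and E6.5 Epi *Dnmt*-null (3.36). Without the filter on low counts, the same 3 let-7b values were 3.09, -3.09 and 3.25, all called, and 2, 1 and 2 members were called in Exe against Epi at E6.5, E6.5 Epi *Dnmt*-null and SC DKO against WT. With only the 2 groups compared, 2 members were called in Exe against Epi at E7.5, 0 in Exe E7.5 against E6.5, 2 in E7.5 Exe *Dnmt3a/3b*-DKO and 1 in E7.5 Epi *Dnmt3a/3b*-DKO, and let-7b turned to -0.064 in SC *Dnmt*-null against WT. DESeq2's other counts differed by at most 1, and the members' median in O48 was 1.41 under DESeq2 and under RLE. The cause of these differences was not tested.

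With the replicate number as a replicate block, 1 member was called in Exe E7.5 against E6.5 and 0 in SC DKO against WT, where let-7b was at -4.61 (adjusted p = 0.0889 by edgeR). let-7b turned to 0.017 in Exe against Epi at E7.5, 0.062 in E7.5 Epi *Dnmt3a/3b*-DKO and -0.095 in SC *Dnmt*-null. The correlation of deviations between libraries with the same number ran from -0.25 to 0.45 over 22 comparisons, and in 0 of them was every pair above 0.1. In SC DKO against WT it was 0.093 to 0.23, with a median of -0.077 between libraries of other numbers. In E6.5 Epi *Dnmt*-null against control it was 0.050 to 0.31, with a median of -0.12 between other numbers. These values do not settle whether libraries with the same number are paired.

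On leaving out 1 library, the count of called members ran from 1 to 2 in Exe against Epi at E6.5, 0 to 2 in Exe E7.5 against E6.5, 0 to 1 in E6.5 Epi *Dnmt*-null, 0 to 1 in E7.5 Exe *Dnmt3a/3b*-DKO, 0 to 2 in E7.5 Exe *Dnmt*-null, 2 to 4 in O48 and 0 to 2 in SC DKO against WT. The let-7b log2 fold change crossed 0 in Exe against Epi at E7.5 (-1.08 to 1.15), Epi E7.5 against E6.5 (-1.26 to 0.99), E6.5 Exe *Dnmt1*-KO (-2.57 to 0.89), E7.5 Exe *Dnmt3a/3b*-DKO (-0.38 to 1.98), E7.5 Epi *Dnmt1*-KO (-1.22 to 3.46), *Dnmt3a/3b*-DKO (-1.72 to 0.51) and *Dnmt*-null (-0.88 to 2.88), O48 (-0.42 to 1.03), SC *Dnmt*-null (-0.91 to 0.46) and SC Mir-6KO;*Dnmt*-null (-0.62 to 0.40). It ran from 1.90 to 3.56 in Exe against Epi at E6.5, -3.62 to -1.85 in Exe E7.5 against E6.5, 1.0 to 3.94 in E6.5 Epi *Dnmt*-null and -4.83 to -4.35 in SC DKO against WT. In DKO;*Dnmt*-null against DKO, where let-7b missed the filter, it was 2.59 without the filter and 2.07 to 3.01 on leaving out 1 library. let-7b was called each time, with adjusted p from 0.00155 to 0.0412 by edgeR. The standard error of let-7b was 1.18 even in E7.5 SC embryos, at 41 to 695 counts a library.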

Other observations

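The 3 AG-haESC libraries of the line named 408, which the labels place in no group, had a summed let-7 level of 11854, 12129 and 11416.5 CPM. let-7f was at 5119, 5175 and 4759 CPM, let-7g at 2729, 2957 and 2705 CPM and let-7a at 2226, 2174 and 2094 CPM. let-7b was at 7.5, 16.7 and 18.3 CPM, from 37, 69 and 85 counts. The 5 other miRNA genes targeted in Mir-6KO summed to 445, 418 and 411 CPM in them.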
